A study of Aedes albopictus with 6 samples.

Results

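Long exonic circRNAs of the Asian tiger mosquito Aedes albopictus were described in whole bodies of both sexes. A circRNA was counted as long and exonic where its host gene was protein coding, both ends lay in exons, the spliced length given by the authors was 2000 bases or more, and the genomic span exceeded that length and stayed under 50000 bases. This rule, which used no read count, took 261 of 8690 circRNAs listed (3.0%), from 225 of 4166 host genes. The libraries came from whole bodies of 2-day-old virgins of the Foshan strain, females and males, with 3 pools of 30 mosquitoes per sex. Both sexes shared strain, age and protocol, in which ribosomal RNA was removed and linear RNA was digested with RNase R. Reads across the back-splice junction were counted, so a circle contributes 1 junction whatever its length, and levels were not divided by length.

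A circRNA forms when the splice site at the end of a downstream exon is joined to the start of an upstream exon, which closes the exons between them into a ring without free ends. Such rings resist exonucleases such as RNase R and in flies and mammals are known to build up in nervous tissue. A junction read shows the 2 ends that were joined but not which exons lie between them, so the spliced length is the authors' value and not a measured one. The genome sequence of the build of the files was not used here, so circles are given by contig, position and strand.

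The long circles lay well inside their genes, and nearly all included some coding sequence. Spliced length ranged over 2000 to 7154 bases (median 2489), with 133 circles under 2500 bases, 59 at 3000 or more and 7 at 5000 or more. Genomic span ranged over 2092 to 46624 bases with a median of 7680, and the introns inside summed to a median of 5018 bases. Introns were short in many: 87 circles held under 1000 bases of intron, whereas 53 spanned over 20000 bases. The strand matched that of the host gene in all 261, on 77 contigs. The authors' annotation listed coding sequence, of any extent, in 259 circles (99.2%), a start codon in 9 (3.45%) and a stop codon in 1. Of otherwise matching circRNAs of 1000 up to 2000, 500 up to 1000 and under 500 bases, 99.2%, 98.8% and 99.2% had coding sequence listed. Start codons were listed in 1.46%, 1.10% and 0.780% of them. The upstream end lay at a median of 72.3% of the way into the host gene, close to the 70.9%, 70.8% and 70.2% of those shorter classes. A long circle covered a median of 8.46% of its gene.

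**Figure D1:**
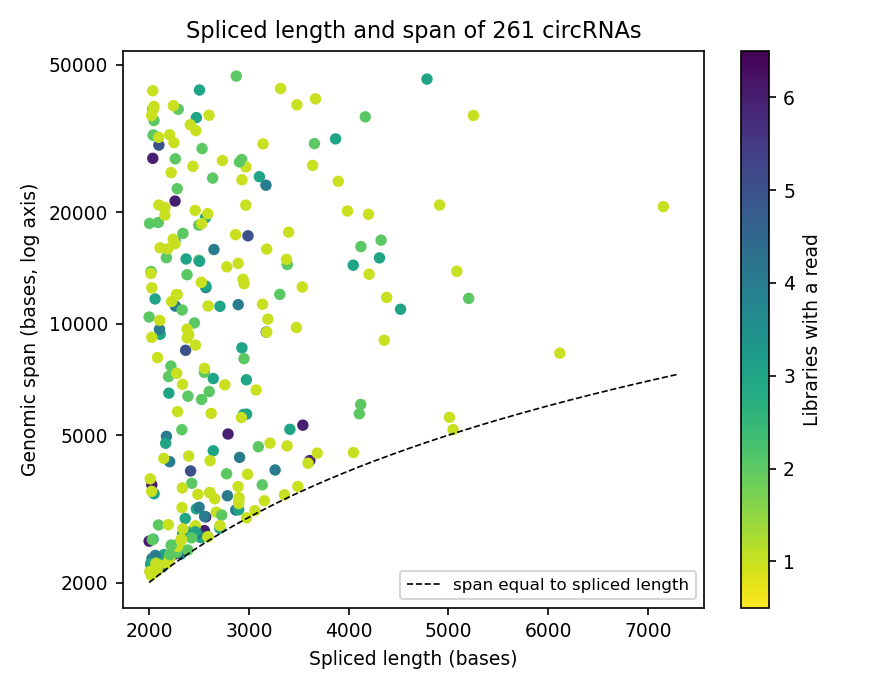
Spliced length (x axis, bases) against genomic span (y axis, bases, log axis) for the 261 long exonic circRNAs, each point coloured by the number of libraries with a read. The dashed line marks a span equal to the spliced length: 87 circles lie close to it with under 1000 bases of intron, and the longest, at 7154 bases, had reads in 1 library.

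Long circles often lay over smaller circles of the same gene. An end was shared with another listed circRNA in 130 (49.8%), against 50.4%, 51.2% and 45.0% in the shorter classes. A smaller circRNA lay inside 138 (52.9%), against 42.6%, 32.6% and 12.5%. The long circles also had wider spans, with a median of 7680 bases against 2587, 1315 and 631. A wider span has more room for other circles, and the part of span in these shares was not tested. Most host genes (194) gave 1 long circle, 27 gave 2, 3 gave 3 and 1 gave 4. In 62 host genes the listed circRNAs were all long, and in the other 163 the long circles held a median of 20.8% of the gene's junction reads. Where a host gene had other circRNAs, the long circle was the most abundant, or tied for it, in 52 of 201 cases (25.9%). In the 3 shorter classes this share, ties included, was 29.5%, 37.4% and 39.3%.

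Long circles were rare among junction reads and recurred less than shorter ones. They held 1595 of 121044 junction reads (1.32%), 680 of 47311 in females and 915 of 73733 in males. The median was 3 reads over all 6 libraries, against 4, 6 and 5 in the shorter classes, and the highest was 81, against 528, 1110 and 736. The reads were concentrated: 131 circles (50.2%) had 2 or 3 reads, while 38 circles with 10 or more reads held 48.2% of all reads of the set. The table lists a circRNA only where 1 library or more reached 2 reads, so rarer circles are outside these counts.

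Among the long circles, 125 (47.9%) had reads in 1 library, against 39.1%, 31.1% and 38.5% of circRNAs of 1000 up to 2000, 500 up to 1000 and under 500 bases. Reads in all 6 libraries were found for 11 (4.21%), against 8.87%, 15.1% and 14.6%. At equal abundance the classes were close. With 4 to 6 reads in total, long circles had reads in 2.12 libraries on average, against 2.1, 2.09 and 1.98 in the shorter classes. With 11 to 20 reads the means were 4.04, against 4.33, 4.27 and 4.26. These are counts over circles and were not tested, since circles of a library share its depth.

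**Figure D2:**
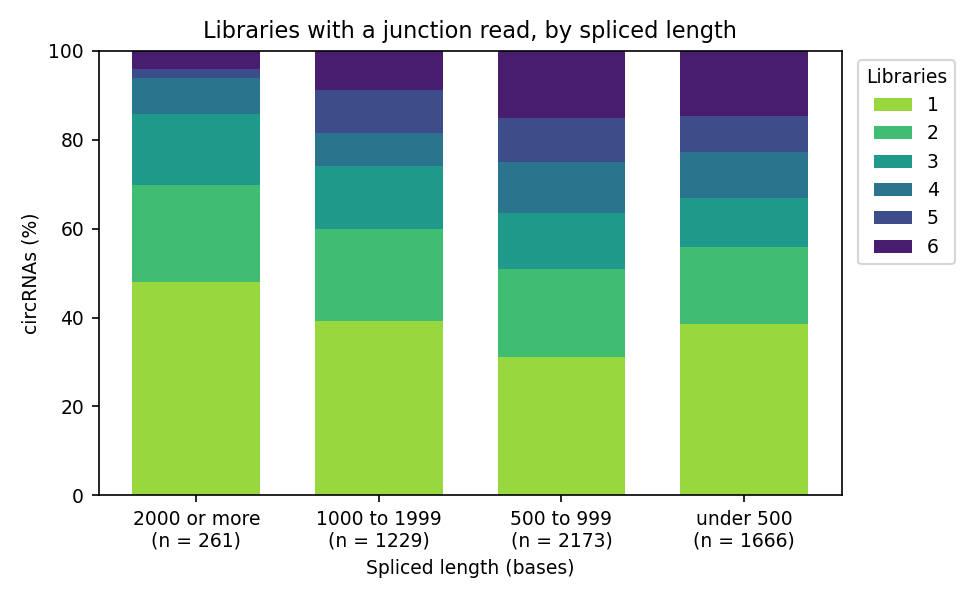
Share of circRNAs (y axis, percent) with a junction read in 1 to 6 libraries, for exonic circRNAs with an inner intron in 4 classes of spliced length (x axis, bases, with the number of circRNAs). The class of 2000 bases or more has the widest band for 1 library (47.9%) and the narrowest for 6 libraries (4.21%).

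The share of junction reads in long circles overlapped between the sexes. The share was 1.32%, 1.43% and 1.60% in female replicates 1, 2 and 3, and 1.47%, 1.06% and 1.23% in male replicates 1, 2 and 3. The 95% Wilson intervals ran over 1.15 to 1.5%, 1.26 to 1.62% and 1.40 to 1.83% in the females, and over 1.32 to 1.64%, 0.938 to 1.19% and 1.10 to 1.36% in the males, and cover counting error only. The means were 1.45% ± 0.142 in females and 1.25% ± 0.207 in males (SD, n = 3 each). Female libraries held 13322 to 17197 junction reads and male libraries 21624 to 27257. Beside that difference in depth, 60.0 ± 8.72 long circles per female library and 76.3 ± 8.33 per male library had at least 2 reads. Thinned to 13322 reads per library, females kept 52.9 ± 11.9 and males 41.4 ± 9.09 such circles, and the sexes overlapped. Female replicate 3 set that depth, so it kept all of its 66. Counted at 1 read or more after thinning, the order turned, with 73.3 ± 11.5 in females and 81.8 ± 10.5 in males, again overlapping.

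The most abundant long circle came from the gene of E3 ubiquitin-protein ligase Ufd4 (LOC109404606), an enzyme that tags proteins with ubiquitin. It lay on contig NW_021837378.1 from 35678345 to 35683380 on the plus strand, with a spliced length of 2791 bases and coding sequence listed in it. It had 8, 7 and 6 reads in the female libraries and 14, 31 and 15 reads in the male libraries. The male libraries were all above the female ones once scaled for depth. The level was 4.47 ± 0.418 junction reads per 10000 in females and 8.13 ± 3.80 in males (SD, n = 3 each), of which male replicate 2 was the highest. The edgeR quasi-likelihood test gave a log2 fold change, female over male, of -0.86 ± 0.57 (SE) with an adjusted p of 0.42, which did not pass the threshold of 0.05, and the fold change was -0.51 without male replicate 2.

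Ufd4 was also the host gene with the most long circles, 4 of its 9 circRNAs, which together held 86.9% of its 122 junction reads. A circle of 2416 bases began at the same position and had 5, 3 and 2 reads in females and 0, 5 and 4 in males. The 2 remaining circles began upstream and include the start codon in the authors' annotation. One, of 2930 bases, had 1, 0 and 1 reads in females and 2, 0 and 0 in males. The other, of 2555 bases, had 2 reads in female replicate 3 and none elsewhere. So 2 starts and 2 ends combined to give all 4 circles.

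Fatty acid synthase (LOC109419595) makes long-chain fatty acids, and its circle of 2265 bases was the most abundant circRNA of that gene, with 33.3% of its reads. It had 19, 3 and 2 reads in females and 3, 8 and 8 in males. Female replicate 1 stood far above the other 5 libraries. The log2 fold change was 0.97 ± 0.75 (edgeR adjusted p = 0.51) and turned to -0.63 without that library (adjusted p = 0.88).

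The circle of a low-density lipoprotein receptor-like gene (LOC109405842), whose vertebrate relatives take up lipoprotein particles, had 5, 5 and 2 reads in females and 8, 9 and 16 in males. Its spliced length of 2037 bases spanned 27955 bases of contig NW_021837045.1. Scaled for depth, the male libraries were above the female ones, at 2.48 ± 0.885 per 10000 in females and 4.38 ± 1.24 in males. The log2 change was -0.79 ± 0.75 with an edgeR adjusted p of 0.60. P protein (LOC109621844), whose human counterpart acts in pigment granules, gave a circle of 2027 bases with 1, 7 and 4 reads in females and 10, 6 and 14 in males, and these overlapped once scaled (log2 fold change -0.65 ± 0.78, edgeR adjusted p = 0.70). This value was -0.19 without female replicate 1, -1.28 without female replicate 2 and -0.996 without male replicate 2.

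A circle of 2012 bases from a gene for a multidrug resistance-associated protein (LOC109426856), of the family of membrane pumps driven by ATP, had 8, 6 and 3 reads in females and 8, 3 and 11 in males. The sexes overlapped, and the log2 fold change of 0.26 ± 0.78 (edgeR adjusted p = 0.88) changed sign under other settings. The circle of 2260 bases from the gene of vascular endothelial growth factor receptor 1 (LOC109417728), a receptor tyrosine kinase in vertebrates, had 3, 11 and 4 reads in females and 6, 1 and 6 in males. Its log2 fold change was 1.06 ± 0.92 (edgeR adjusted p = 0.56), and the sexes overlapped. It was 0.33 without female replicate 2, whose 11 reads were the most, and 0.52 without male replicate 2.

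These 6 circles, 2.30% of the set, were the only long ones with enough reads for the edgeR test, and 0 were called. None had an unadjusted p under 0.05. Over all 738 circRNAs tested, 3.79% were called higher in females and 2.85% higher in males. The median log2 fold change was -0.20 over the 6 and -0.01 over all tested. With so few tested, sex differences of the usual long circle were not detectable at this depth.

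**Figure D3:**
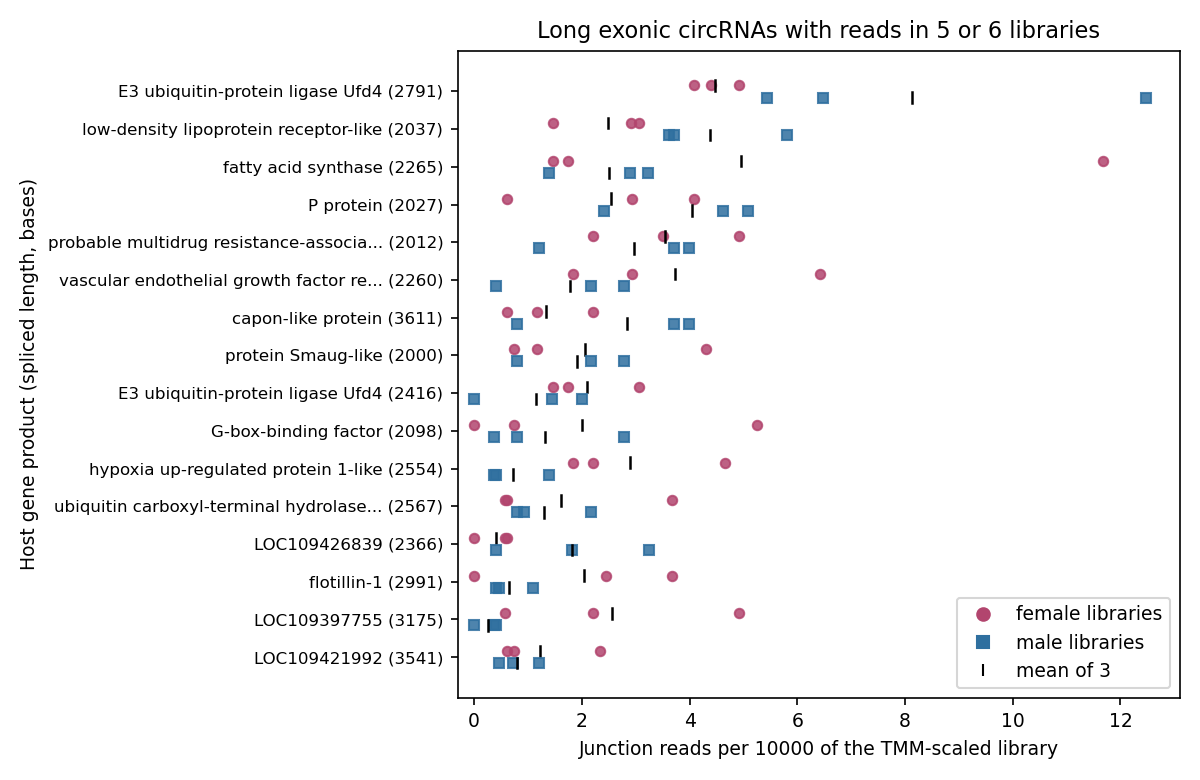
Level of the 16 long exonic circRNAs with reads in 5 or 6 libraries, as junction reads per 10000 of the scaled library (x axis), with the host product and the spliced length in bases (y axis). Each point is 1 library, circles are female and squares male, and ticks are means of 3. Ufd4 lies highest in males, and the highest female point belongs to fatty acid synthase in female replicate 1.

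Other recurrent circles included that of a capon-like protein (LOC109409662), related to an adaptor of neuronal nitric oxide synthase in mammals. This circle of 3611 bases had 1, 2 and 3 reads in females and 8, 2 and 11 in males. The Smaug-like gene (LOC109420858), whose Drosophila relative represses translation of maternal mRNAs, gave a circle of exactly 2000 bases with 7, 2 and 1 reads in females and 6, 2 and 6 in males. Both overlapped between the sexes. Just above the length limit lay also acetylcholinesterase (LOC109403733), which breaks down acetylcholine, at 2000 bases with 1, 0 and 0 reads in females and 0, 3 and 0 in males. Just below it, a GPCPD1-like gene (LOC109428257) had a circRNA of 1995 bases with 6, 3 and 0 reads in females and 5, 5 and 0 in males. A further pair of circRNAs below the limit, at 1991 and 1983 bases, had 2 and 5 reads in total.

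The longest circles were sparse. The circle of 7154 bases from a futsch-like gene (LOC109431650), whose Drosophila relative binds microtubules in neurons, had 3 reads in female replicate 3, none elsewhere, and held 0.419% of its gene's reads. A circle of 6117 bases from a ROS-like tyrosine kinase gene (LOC109432609) had 3 reads in male replicate 1 and none elsewhere. Rap guanine nucleotide exchange factor 2 (LOC109402099), an activator of Rap GTPases, gave 5251 bases with 3 reads in female replicate 3. An uncharacterized gene (LOC109622862) gave 5203 bases with 3, 0 and 0 reads in females and 0, 1 and 0 in males. Protein 4.1 (LOC115256126), which links the membrane to spectrin and actin, gave 5084 bases with 3 reads in male replicate 1. Only LOC109622862 of these 5 had reads in both sexes.

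Rim2-like (LOC109423917), related to a mitochondrial carrier of pyrimidine nucleotides in yeast, gave the most abundant of the long circles found in 1 sex only. The circle of 2643 bases lay on contig NW_021838153.1 from 153949258 to 153953795 on the plus strand, with coding sequence listed in it. It had 8, 4 and 8 reads in females and 0, 0 and 0 in males. Every female library was thus above every male one, at 4.37 ± 1.83 junction reads per 10000 in females. The observed female level was 10.5-fold that of 3 reads, which a count of 0 allows over all male libraries (0.405 per 10000). This ratio leaves out the error of the female reads, so it is no lower bound. The abundance filter of the edgeR test left this circle out. DESeq2 called it higher in females with an adjusted p of 0.00506, as the 1 long circle among 3.09% of 940 circRNAs called in that direction. In edgeR with all libraries and no filter on low counts its adjusted p was 0.0783. Without female replicate 2 it passed the filter, through female replicates 1 and 3 alone, and had an edgeR adjusted p of 0.0281, beside 1.95% of 1130 circRNAs called higher in females. Since a circle without male reads can pass the filter only by being high in females, that value is a description and no support.

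The other circRNAs of the Rim2-like gene had reads in males, and the difference between them and the long circle was not tested. A circle of 472 bases inside the long one had 33, 23 and 14 reads in females and 15, 28 and 28 in males. Scaled for depth, its level was 14.6 ± 5.11 per 10000 in females and 9.46 ± 2.25 in males. A circle of 775 bases with the start of the long one had 0, 0 and 0 reads in females and 3, 0 and 1 in males. Summed over its 3 circRNAs, the gene had 19.0 ± 5.33 reads per 10000 in females and 10.04 ± 1.53 in males. The log2 fold change of this sum was 0.88 ± 0.36, with an edgeR adjusted p of 0.15. In whole bodies, fewer cells of a type and less RNA per cell cannot be told apart.

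Niemann-Pick type transporter genes gave long circles that shared a start and differed at the end. NPC intracellular cholesterol transporter 1 (LOC109621239) moves cholesterol out of lysosomes in mammals. Its circle of 2947 bases, on contig NW_021838153.1 from 162710893 to 162716580, had 0, 0 and 0 reads in females and 6, 6 and 3 in males. The observed male level was 3.18-fold that of 3 reads in all female libraries together. Its circle of 2868 bases, with the same start and an end at 162714032, had 7, 0 and 1 reads in females and 5, 1 and 0 in males, so the sexes overlapped. A second gene of the same product name (LOC109427594) gave circles of 2977 bases (0, 0 and 1 reads in females, 1, 0 and 4 in males) and 2898 bases (0, 0 and 1 reads in females, 4, 1 and 0 in males). Reads could be split between such genes, and the difference of the male-only circle from the pair was not tested.

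**Figure D4:**
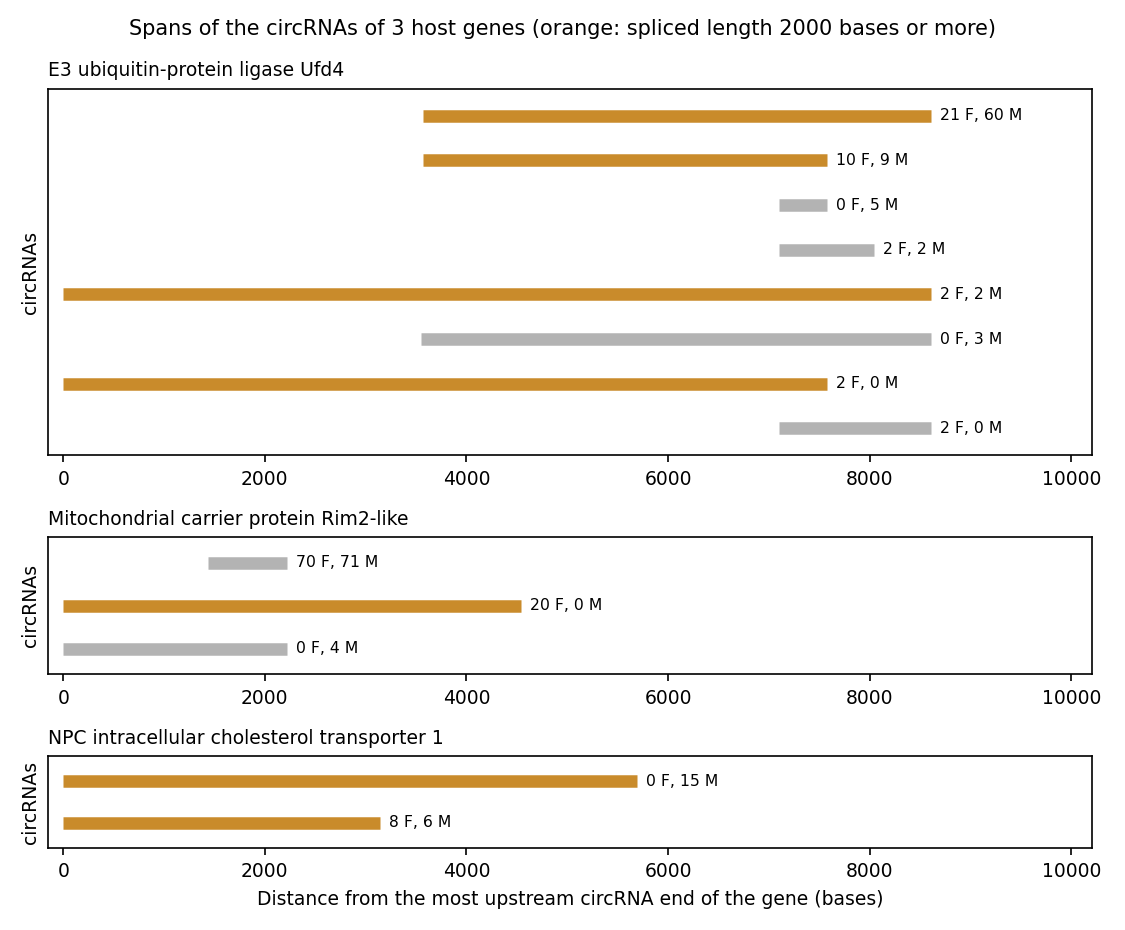
Spans of the circRNAs of 3 host genes as distance from the most upstream circRNA end (x axis, bases), 1 bar per circRNA, with its reads summed over 3 female (F) and 3 male (M) libraries. Orange bars are long exonic circRNAs: the Rim2-like one had 20 female and 0 male reads and the smaller circle inside it 70 female and 71 male reads, from libraries with 47311 female and 73733 male junction reads in all. A further Ufd4 circRNA of 265 bases with 2 reads lies beyond the window.

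Over the whole set, 66 long circles (25.3%) had reads in females only, 95 (36.4%) in males only and 100 in both sexes. In the shorter classes, from the longest down, 17.9%, 14.4% and 16.4% were found in females only and 35.2%, 31.2% and 34.5% in males only. Long circles also had fewer reads each (median 3, against 4, 6 and 5), whose part in these shares was not tested. Every female library was above every male one for 5 long circles, against 2.28% of all circRNAs listed, and every male library above every female one for 9, against 5.25%. As shares of the set, 5 and 9 of 261 lie near or under those backgrounds. Reads in all 3 female libraries and no male library were found for 2 (Rim2-like and forkhead box protein K1-like), against 0.173% of all circRNAs listed. Reads in all 3 male libraries and no female library were found for 6, against 2.8%, so the male count is near its background and the female one rests on 2 circles.

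Beside Rim2-like, the 4 other circles above in females were those of hypoxia up-regulated protein 1-like, forkhead box protein K1-like and the uncharacterized genes LOC109397755 and LOC109412837, named after their values were seen. Hypoxia up-regulated protein 1-like (LOC109427081), an endoplasmic reticulum chaperone in mammals, had 3, 8 and 3 reads in females and 3, 1 and 1 in males. Its level was 2.90 ± 1.54 per 10000 in females and 0.718 ± 0.581 in males. LOC109397755 had 8, 1 and 3 reads in females and 0, 1 and 1 in males. LOC109412837 had 3, 3 and 3 reads in females and 0, 0 and 3 in males. These 4 had too few reads for the edgeR test.

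Fusilli (LOC109416894), an RNA-binding protein whose mammalian relatives regulate splicing in epithelia, gave a circle of 4520 bases with 0, 0 and 0 reads in females and 3, 4 and 6 in males. Its observed male level was 2.75-fold that of 3 reads in all female libraries together. Unconventional myosin IC-like (LOC109409839), a single-headed motor on actin, had 0, 0 and 0 reads in females and 4, 4 and 1 in males (1.91-fold on that measure). A GTPase-activating protein (LOC109415018) had 0, 0 and 0 reads in females and 1, 4 and 3 in males (1.70-fold on the same measure, which is no lower bound). Each of these 3 had reads in every male library, as did circles of vascular endothelial growth factor receptor 1-like (LOC109415159) and MAP kinase-activating death domain protein-like (LOC109403571).

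Many circles of 1 sex rested on 1 or 2 libraries. Piezo-type mechanosensitive ion channel component (LOC109402487) had 0, 0 and 0 reads in females and 8, 1 and 0 in males for a circle of 3095 bases. Epidermal growth factor receptor substrate 15-like 1 (LOC109416929), an endocytosis adaptor, had 0, 0 and 0 reads in females and 8, 0 and 1 in males. A gene of the same product name (LOC109417691) gave a circle of the same 2049 bases with 2 reads, in male replicate 1. Kibra-like (LOC109414693), a regulator of the Hippo pathway in Drosophila, had 7 reads, all in female replicate 3, for a circle of 2275 bases. A gene of the same product name (LOC109401902) gave a circle of 2271 bases with 4 reads in female replicate 3 and 1 in male replicate 3. How reads were divided between such genes was not tested. Integrator complex subunit 1-like (LOC109432535), part of a complex that processes small nuclear RNAs, had 6, all in female replicate 1. E3 ubiquitin-protein ligase UBR1 (LOC109405489) had 5, all in female replicate 2, and sodium-dependent phosphate transporter 2 (LOC109429232) had 0, 3 and 2 in females and none in males.

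**Figure D5:**
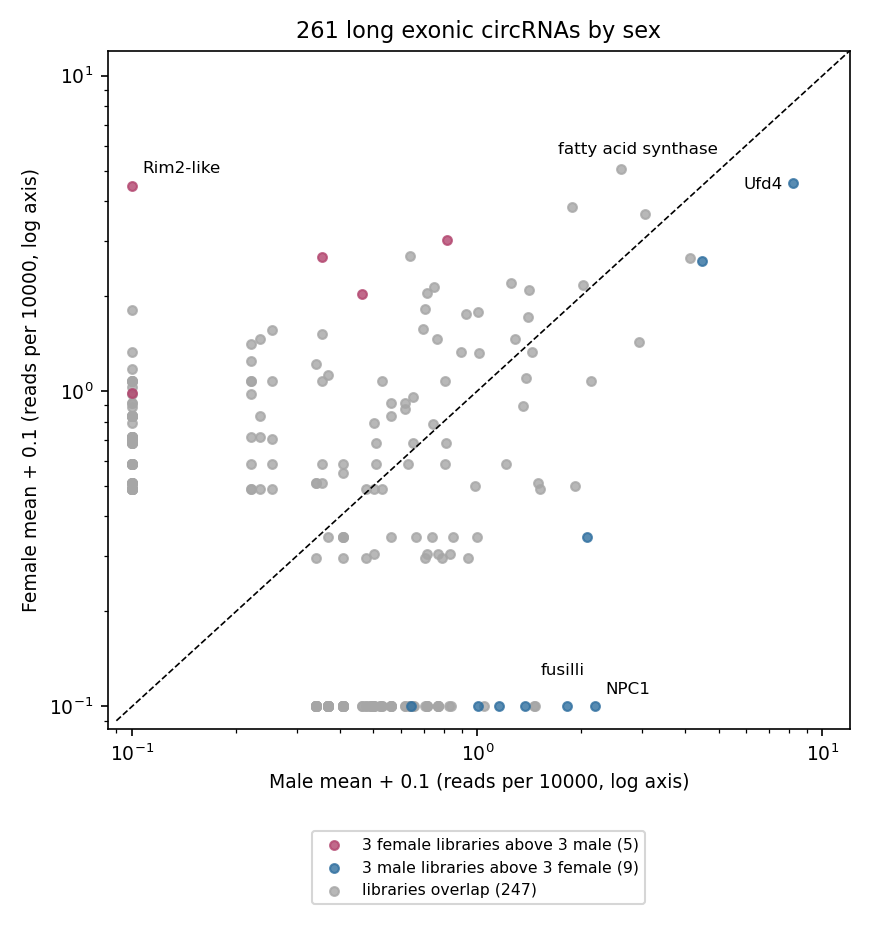
Mean female level (y axis) against mean male level (x axis) of the 261 long exonic circRNAs, in junction reads per 10000 plus 0.1, both log axes, with the line of equality dashed. Coloured points mark the 5 circles with all female libraries above all male ones and the 9 with all male libraries above all female ones. Rim2-like lies at 4.37 reads per 10000 in females with no male read.

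Host genes were grouped by words in their product names, and a gene could fall in several lists. Circles of ion channel and synapse genes had more reads in males in this summed count. The list held 12 circles of 7 genes, with 5, 2 and 5 reads in females and 20, 24 and 21 in males, or 2.63 ± 1.31 per 10000 in females and 8.84 ± 1.08 in males. The libraries did not overlap. In the adhesion, axon guidance and matrix list, given below, they did not overlap either, with females higher. Of the 12 ion channel and synapse circles, 6 had reads in males only and 0 in females only. Among all long circles, 36.4% had reads in males only and 25.3% in females only, and male libraries were deeper. With 12 circles this count is a description. Of the genes in the ion channel and synapse list, 2 were tested and 0 called by edgeR, as against 4.83% of all 870 host genes called in either direction. The list's 65 male reads were concentrated in few products. Circles of 2893 and 2650 bases from synaptosomal-associated protein 25 genes, given below, held 15 and 8 of them. Piezo circles of 3095 and 4123 bases (LOC109402487) held 9 and 7, with no female read. The sum thus speaks for few host products and not for the list as a whole. More male than female reads of neuronal host genes were already known from these libraries, so the list is not independent evidence.

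Genes for synaptosomal-associated protein 25, a SNARE protein of synaptic vesicle fusion, gave 5 of these 12 circles. The gene LOC109431022 gave a circle of 2893 bases with 0, 0 and 1 reads in females and 2, 7 and 6 in males, with the male libraries above the female ones. It also gave one of 3171 bases (0, 0 and 2 reads in females, 1, 1 and 2 in males) and one of 2941 bases with 3 reads in male replicate 3. The gene's most abundant circRNA was a shorter one of 389 bases with 2, 13 and 0 reads in females and 11, 7 and 12 in males. All 3 long circles ended at the same position and began at different ones. The gene LOC109412120, of the same product name, gave 2650 bases (0, 0 and 2 reads in females, 3, 3 and 2 in males) and 2928 bases (0, 2 and 0 reads in females, 0, 3 and 0 in males). The host log2 fold change of LOC109431022 was -0.98 (edgeR adjusted p = 0.44).

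The ubiquitin list held 16 circles of 13 genes, 14.7 ± 2.47 reads per 10000 in females and 12.9 ± 4.86 in males, and Ufd4 gave most of its reads. Cytoskeleton and muscle genes gave the longest named list, with 25 circles of 19 genes, 13.4 ± 6.45 per 10000 in females and 9.57 ± 0.279 in males. In it, tubulin polyglutamylase TTLL4 (LOC109427916), which adds glutamate chains to tubulin, had 6, 7 and 0 reads in females and 0, 4 and 0 in males for a circle of 2975 bases. Kinesin heavy chain (LOC109410340), a motor that walks on microtubules, had 6, 0 and 2 reads in females and 0, 0 and 5 in males. Ankyrin-3 (LOC109417689), a link between membrane proteins and spectrin, gave 3 circles with 7, 3 and 3 reads in total.

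The transcription and chromatin list held 10 circles of 9 genes with 7, 18 and 10 reads in females and 3, 12 and 1 in males. Its members matched by words and include zinc finger FYVE domain proteins, which bind endosomes, and a membrane protease, neither of which is a transcription factor. The circle of YTHDC2 (LOC109425944), an RNA helicase that reads methylated adenosine in mammals, had 0, 6 and 2 reads in females and 1, 5 and 0 in males. That of helicase POLQ-like (LOC109426404), of a family of DNA repair helicases, had 0, 5 and 2 reads in females and 1, 0 and 0 in males. The adhesion list held 9 circles with 4, 6 and 13 reads in females and 3, 0 and 5 in males, among them netrin receptor unc-5-like (LOC109398676) with 4, 0 and 2 reads in females and 0, 0 and 1 in males.

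Kinase and phosphatase genes gave 18 circles at 5.32 ± 1.35 per 10000 in females and 5.23 ± 3.09 in males. Receptors and hormone signalling genes gave 14 at 10.3 ± 1.93 in females and 11.03 ± 3.01 in males, and uncharacterized genes gave 36 at 16.4 ± 2.83 in females and 15.2 ± 6.19 in males. Matching by words put epidermal growth factor receptor substrate 15-like 1, an endocytosis adaptor and no receptor, in the receptor list. It also put a kinase D-interacting substrate of 220 kDa-like, a substrate by its name, in the kinase list. Genes for GTPase regulators gave 6 circles, for RNA binding and decay 2 and for membrane traffic 1. Words for ovary matched 1 circle, that of encore (LOC109426825), which acts in Drosophila oogenesis. Its circle of 5010 bases had 6 reads, all in male replicate 3. Words for testis matched 0, and 116 circles fell in no list.

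Junction reads summed over all circRNAs of a gene were tested for 870 host genes, among them 75 hosts of long circles. By edgeR, 1 of the 75 was called higher in females, against 2.53% of all tested, and 0 higher in males, against 2.3%. An unadjusted p under 0.05 was found for 14 of the 75 (18.7%) and for 18.2% of all 870. The called gene was contactin-associated protein-like 4 (LOC109399283), of a family of neuronal cell adhesion proteins in vertebrates. It had 27, 24 and 37 reads in females and 9, 9 and 21 in males, or 19.2 ± 6.96 per 10000 in females and 5.13 ± 2.17 in males. The log2 fold change was 1.83 ± 0.44 (edgeR adjusted p = 0.0075), which missed the threshold without female replicate 3 (adjusted p = 0.107) or male replicate 2 (adjusted p = 0.102). Its long circles, of 2159 and 2970 bases, added only 6 of its 127 reads, all in female replicate 3.

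Zer-1 (LOC109425653), a substrate receptor of a ubiquitin ligase in other animals, had 40, 23 and 18 reads in females and 11, 12 and 24 in males over its circRNAs, with a log2 fold change of 1.40 ± 0.43 (edgeR adjusted p = 0.0548). Arf-GAP domain and FG repeat-containing protein 1 (LOC109420062) had 19, 13 and 18 reads in females and 1, 5 and 14 in males, with 1.98 ± 0.63 (edgeR adjusted p = 0.0697). Both passed the threshold under DESeq2. In edgeR both missed it without a filter on low counts, with adjusted p of 0.314 for zer-1 and 0.253 for Arf-GAP. Without male replicate 2 both missed it too (edgeR adjusted p = 0.255 and 0.256), as they did without male replicate 1 (0.188 and 0.264). Neither gene was picked by the naming rules given below. Their long circles held 5 reads each.

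Pairs of long circles at like-named genes were counted after the data were seen. There were 25 pairs, with 47 circles, at 2 host genes whose product names were the same or differed only by the ending -like. Their spliced lengths lay within 30 bases of each other. In 6 pairs the spliced length was equal, and in 6 the reads were equal in all 6 libraries. Contactin-associated protein-like 4 circles of 2159 bases at LOC109399283 and LOC115264448 had 3 reads each in female replicate 3. Furry circles of 2110 and 2107 bases at LOC109403764 and LOC109416937 had 3 reads each in male replicate 1. Among 8 pairs in which each circle had reads in 1 library only, 7 had them in the same library. For vascular endothelial growth factor receptor 1, the circle at LOC109417728 had reads in every library, whereas that of the same length at LOC109415159 had 0, 0 and 0 reads in females and 1, 2 and 4 in males. How reads were divided or shared between such genes was not tested, and the values of these 47 circles are uncertain for that reason.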

How the data were processed

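Whole-body RNA of 3 female and 3 male pools was sequenced after ribosomal RNA removal and RNase R digestion, per the labels' protocols. Bowtie2 2.1.0 is named in the submitters' notes on processing. The caller, annotation and build were not given in the sources used here. The deposited table holds raw counts of back-splice junction reads, per the file headers and values, in 30393 lines that were collapsed to 8690 circRNAs by contig, start, end and strand. Spliced length is the authors' deposited value. The authors' deposited table of TMM-normalised CPM holds 764 circRNAs, 6 of them long, and 100% of its values gave whole reads within 0.01. Contig positions are as deposited, and their starts may count from 0 or from 1. Span is the end minus the start of the circRNA.

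The test of counts was run in edgeR 4.0.16 (R 4.3.3) with TMM factors, filterByExpr (minimum count 5, minimum total 15), the quasi-likelihood F test of sex and Benjamini-Hochberg adjustment over all circRNAs, or all host genes, tested. Levels are reads per 10000 of the TMM-scaled library, mean ± SD, n = 3 pools per sex. Folds against a sex without reads use 3 reads over its 3 libraries and leave out the error of the reads in the other sex. DESeq2 1.42.0, other normalisation and filters, a replicate block and leaving out libraries were alternatives. The edgeR fits were also run on simulated counts of the circRNAs and host genes that passed the filter. Only 6 long circles passed it, so that run says nothing about the others, and its outcome is not given here. The members, the host lists and the rules were chosen with earlier results of these data known. Named circles were the tested ones, the 10 most abundant, up to 5 found in 1 sex only, the 5 longest, the 5 genes with most, up to 2 per list, and those nearest 2000 bases. No molecular identifiers are named in the labels, so intervals and floors cover counting error only. No pair of libraries of 1 sex agreed within sampling noise, so none looked like a repeat deposit of another. Separate pools exceed that noise by design, so this shows nothing more.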

Additional observations from a re-analysis of the deposited data

How the results depend on the processing

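Depth limits most values: the usual long circle had 3 reads, and 6 of 261 were tested. The numbers of calls moved as follows. Over all circRNAs, edgeR called 28 higher in females and called 21 higher in males. Without a filter on low counts 3 were higher in females. Leaving out 1 library gave 11 to 29 higher in females and 12 to 26 in males. Among long circles, calls higher in females were 0 by edgeR and 1 by DESeq2, and 0 to 1 leaving out 1 library, with 0 to 0 higher in males. That circle, Rim2-like, had no male read and passed the filters of DESeq2 and edgeR in these fits through female libraries alone, so they give no support. Its edgeR adjusted p was 0.0281 without female replicate 2 and 0.0800, 0.0893 and 0.0864 without male replicates 1, 2 and 3. With the authors' library scaling, added after seeing the data, edgeR called 26 circRNAs higher in females and called 21 higher in males.

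Over all host genes, it called 22 higher in females and 20 higher in males. Without a filter 13 were higher in females, and leaving out 1 library gave 6 to 26 in females and 6 to 29 in males. Among hosts of long circles, 1 was higher in females, against 3 with DESeq2, 2 with RLE size factors, 3 with a minimum count of 10 and 0 to 3 leaving out 1 library. Higher in males were 0, against 1 without a filter and 0 to 2 leaving out 1 library; one of these was cubilin (LOC109408324).

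Replicate numbers showed no sign of pairing the samples: deviations of same-numbered libraries correlated at 0.0275, 0.00727 and -0.0256. Those of other-numbered libraries correlated at -0.0724 to 0.0680. With 3 libraries per sex and sparse counts, such values cannot show that pairing was absent. With the replicate block edgeR called 28 circRNAs higher in females and called 21 higher in males, 0 and 0 of them long, and among hosts of long circles it called 3 higher in females and 0 higher in males.

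The share of reads was 3.81% in females and 3.36% in males with a limit of 1500 bases, 0.262% and 0.210% with 3000, 1.10% and 1.02% over circles with 5 or more reads, and 1.37 to 1.51% and 1.14 to 1.35% leaving out 1 library. Circles per library were 76.3 in females and 104 in males at 1 read, 12.7 and 15.7 at 5 reads, 41.4 in males after thinning, and 57 to 65 and 73 to 81 leaving out 1 library. Circles in 1 library were 69.7% at 2 reads per library, 61.0% from 3000 bases and 48.3 to 55.3% leaving out 1 library, and circles in all libraries 1.53% at 2 reads and 4.55 to 5.49% leaving out 1 library. Without the 47 circles with a like-named partner, 48.1% had reads in 1 library.

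The log2 fold change of the multidrug resistance-associated circle was -0.058 without a filter and -0.21 to 0.45 leaving out 1 library, below 0 without female replicate 1 or male replicate 2. That of fatty acid synthase was -0.63 to 1.32 leaving out 1 library, below 0 without female replicate 1. The cause was not tested.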
